A study of Mus musculus with 8 samples.

Results

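The genes described here encode 10 core cardiac transcription factors: Nkx2-5, Gata4, Gata6, Tbx5, Tbx20, Hand2, Mef2a, Mef2c, Mef2d and the coactivator Myocd. They were taken from the table of coding gene counts by matching Ensembl IDs to these symbols, which found 10 of 10 among 29844 genes, and all 10 were among the 14059 genes with enough counts to be tested. The cells were cardiomyocytes freshly isolated from the hearts of E18.5 mouse embryos, near the end of gestation, of a line named B6.Cg-Tg(HIST1H2BB/EGFP)1Pa/J, so that the libraries of both groups carry the H2B-eGFP transgene, a histone fused to a green fluorescent protein, whose driving promoter is not named in the sources used here. They were grown for 4 days to confluence, beating, on polydimethylsiloxane, a silicone rubber, of about 150 kPa (stiff, 4 libraries) or about 10 kPa (soft, 4 libraries). The design asks how the stiffness of the substrate affects RNA levels. Whether libraries on the same substrate stem from different litters or cultures is not stated, so each p-value reflects library-to-library spread that may be technical in part.

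These factors form the regulatory core of heart muscle. Nkx2-5, GATA4, GATA6, TBX5, TBX20 and HAND2 bind enhancers of cardiac genes in combination and activate or maintain one another, MEF2 proteins drive genes of muscle differentiation and respond to calcium and kinase signals, and myocardin joins serum response factor on genes of heart and smooth muscle. In a heart digest these genes are not exclusive to cardiomyocytes: fibroblasts, epicardial cells and smooth muscle express some of them too.

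None of the 10 factors passed the test between stiff and soft. By edgeR's quasi-likelihood test with Benjamini-Hochberg adjustment over all coding genes, 0 of 10 were called, against 0% of the 14059 genes tested, and the adjusted p was 0.99997 for each. DESeq2 and limma-voom also called 0 genes of the table, the factors included, with 322 and 181 genes at an unadjusted p under 0.05. At an unadjusted p under 0.05 edgeR gave 0 of 10 factors, against 0.925% of all genes. The log2 fold changes of stiff over soft ran from -0.54 for Hand2 to 0.31 for Tbx20, with a median of -0.0070 over the factors and -0.011 over all tested genes. Estimates were higher on stiff for 5 factors, against 48.1% of all genes, and lower for 5, against 51.9%. Hand2 was the 1 factor whose libraries did not overlap between substrates, with every stiff library below every soft library, as for 0.747% of all genes; 1.29% of all genes had no overlap in either direction. Across the 14059 genes 130 had an unadjusted p under 0.05, fewer than the 703 that chance gives. With the library number as a block in edgeR 360 did. No label says whether libraries of the same number share a culture. The p-values thus ran high in the whole table, and 0 calls cannot be read as no change in any factor. The unadjusted 95% interval of a factor reached from 1.28-fold to either side of the estimate for Mef2a to 1.87-fold for Nkx2-5. To pass the test adjusted over 14059 genes, a difference must be larger than that reach. Changes beyond these folds may therefore also have been missed at this number of libraries.

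**Figure D1:**
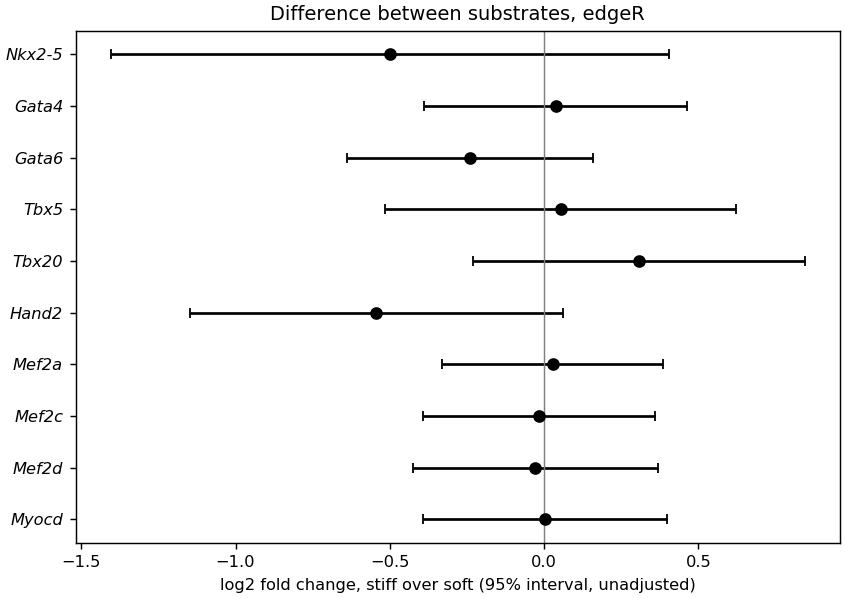
Log2 fold change of stiff over soft for each factor (horizontal axis, points) with its unadjusted 95% interval (bars). All 10 intervals include 0, from Hand2 at -0.54 to Tbx20 at 0.31.

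The libraries held 27924797 to 34693673 coding counts on stiff and 27646471 to 30701041 on soft, of which the 10 factors together took 0.147% to 0.241% on stiff and 0.148% to 0.195% on soft. All 15 cardiomyocyte markers had enough counts to be tested. Their summed level was 26496 to 37778 CPM (each count divided by the library's TMM-adjusted total and put on a common scale) on stiff and 25243 to 45506 CPM on soft. Soft 4 held the highest sum, 45506 CPM, against at most 26883 CPM in the other soft libraries. Transcripts of other cells were there too. The 15 fibroblast markers summed to 8630 to 13454 CPM on stiff and 9334 to 16633 CPM on soft, and the 10 epicardial markers to 879 to 1076 CPM on stiff and 899.8 to 1319 CPM on soft. The 11 tested endothelial markers summed to 249 to 384 CPM on stiff and 244 to 341 CPM on soft (Cldn5, also listed, was at 0), and the 11 leukocyte markers to 116 to 171 CPM on stiff and 125 to 187 CPM on soft. In RNA from whole cultures, fewer cells of a type and less RNA per cell cannot be told apart. Exon lengths were not used here, and levels are therefore compared between libraries within a gene and not between genes.

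The stretch of DNA around the transcription start was read for the factors that RefSeq's promoter table for GRCm38.p6 holds, and 3 of these windows are printed because they are the ones with a match for GATA, MEF2 or T-box factors. Each window runs from 250 bases before to 50 bases after a start. Of the 10 factors 6 had an entry. Matches were searched on both strands for GATAA (GATA factors), CTA and TAG with any 4 bases between them (MEF2), GGTGTG (T-box factors), AAGTG (NKX2-5) and CANNTG (E-box, the site of HAND2 and other basic helix-loop-helix proteins). These occur in 25.4%, 3.69%, 19.0%, 46.4% and 72.3% of all 32851 windows in the table. Capitals mark the first 3 kinds of match alone, since the other 2 are found in so many windows, and no capital match overlaps another motif searched. In the Hand2 window and the window of the first Mef2c start an AAGTG match overlaps an E-box match.
Hand2, chr8:57320733-57321032, plus strand, GRCm38.p6: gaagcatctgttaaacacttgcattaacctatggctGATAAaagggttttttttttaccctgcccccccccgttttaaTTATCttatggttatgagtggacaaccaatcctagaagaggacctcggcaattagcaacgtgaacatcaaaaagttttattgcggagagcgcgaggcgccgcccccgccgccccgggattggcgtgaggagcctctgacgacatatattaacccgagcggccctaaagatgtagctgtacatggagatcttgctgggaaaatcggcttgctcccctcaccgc
Mef2a, chr7:67372809-67373108, minus strand, GRCm38.p6: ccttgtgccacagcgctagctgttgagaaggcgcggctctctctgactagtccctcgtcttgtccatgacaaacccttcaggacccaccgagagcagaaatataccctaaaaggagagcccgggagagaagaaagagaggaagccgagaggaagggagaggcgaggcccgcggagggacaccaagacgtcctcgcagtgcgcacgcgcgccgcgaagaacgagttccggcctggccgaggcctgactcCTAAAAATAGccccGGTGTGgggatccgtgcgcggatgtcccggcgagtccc
Mef2c, second of 3 listed starts, chr13:83523406-83523705, plus strand, GRCm38.p6: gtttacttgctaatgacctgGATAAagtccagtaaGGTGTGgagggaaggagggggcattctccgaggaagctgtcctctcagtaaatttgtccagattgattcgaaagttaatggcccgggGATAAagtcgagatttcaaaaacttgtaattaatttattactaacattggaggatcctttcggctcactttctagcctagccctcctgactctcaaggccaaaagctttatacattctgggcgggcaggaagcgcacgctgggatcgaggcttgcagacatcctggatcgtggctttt
The Hand2 window holds 2 GATAA matches, 1 on each strand. The Mef2a window holds 1 MEF2 match, CTAAAAATAG, and 1 T-box match just after it, and the Mef2c window holds 2 GATAA matches and 1 T-box match. The windows of Nkx2-5, Tbx20, Mef2d and the other 2 starts of Mef2c hold 0 of these 3 motifs. A match is a string of letters and not evidence of binding.

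**Figure D2:**
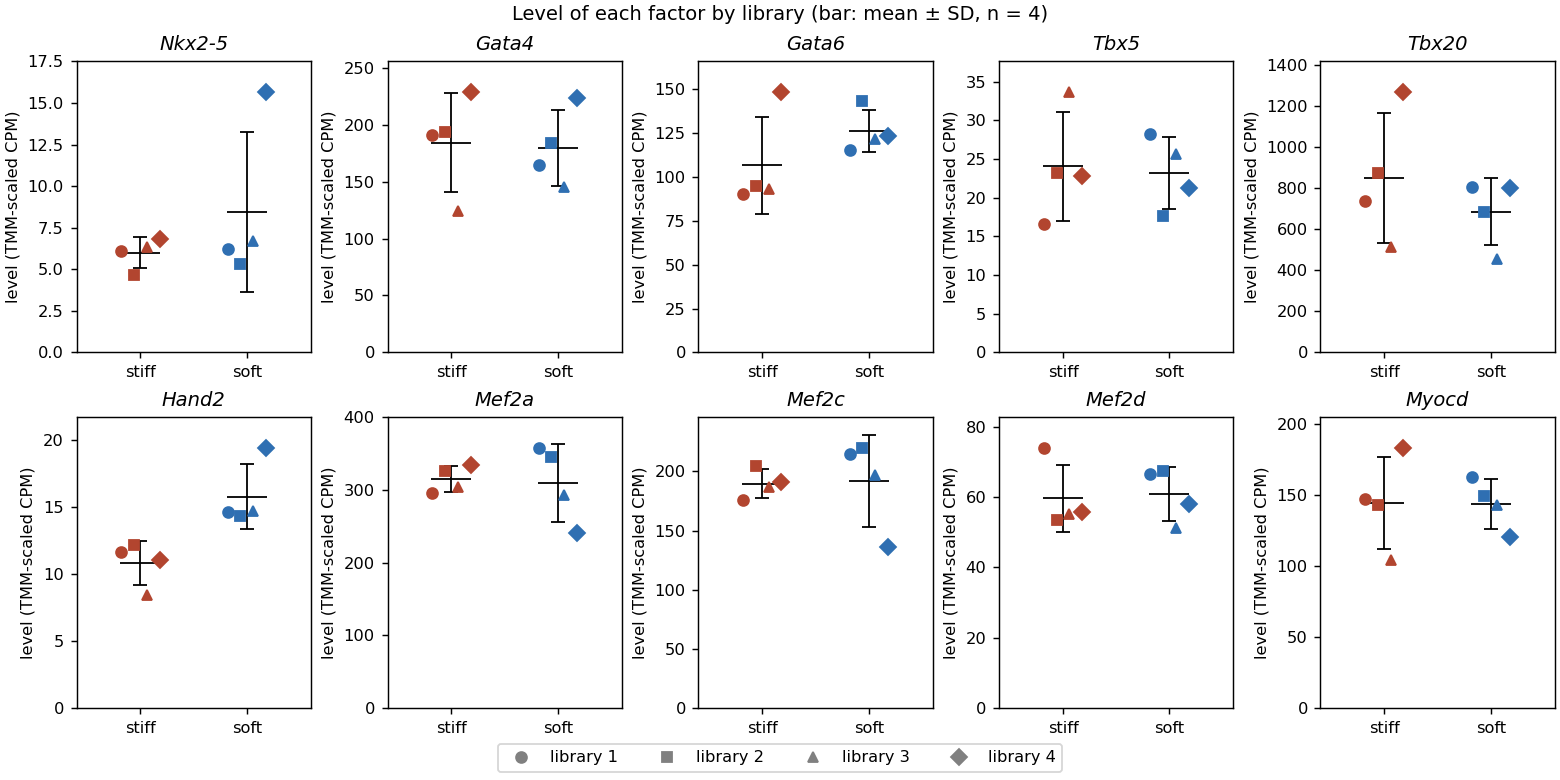
Level of each factor (vertical axis, TMM-scaled CPM, from 0) in the 4 stiff and 4 soft libraries; symbols are single libraries and bars the mean ± SD. Hand2 is the factor whose stiff libraries (8.46 to 12.2 CPM) all lie below its soft libraries (14.3 to 19.4 CPM), and Nkx2-5 has 1 library, soft 4 at 15.6 CPM, far above the other 7.

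Nkx2-5 encodes the homeodomain factor that marks the cardiac lineage and lies on chromosome 17 from 26838664 to 26844988. It was counted at a low level, with 137 to 234 reads per stiff library and 151 to 474 per soft library, so that counting alone gives an error of up to 8.54% of a value. It stood at 6.10, 4.66, 6.33 and 6.83 CPM in stiff libraries 1 to 4, against 6.22, 5.31, 6.69 and 15.6 CPM in soft libraries 1 to 4. The groups overlapped, and soft 4 stood far above the other 7 libraries. The means were 5.98 ± 0.93 CPM on stiff and 8.47 ± 4.82 CPM on soft (SD, n = 4 each), and the log2 fold change was -0.50 (SE 0.43). Without soft 4 it was -0.015, so that the estimate rests on that library. Soft 4 is also the library with the most cardiomyocyte marker RNA, and the part of that in its Nkx2-5 level was not tested.

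Gata4, on chromosome 14 from 63198914 to 63271712, encodes a zinc finger factor that activates natriuretic peptide and contractile genes. It stood at 191, 193, 124 and 228 CPM in stiff libraries 1 to 4, against 165, 184, 145 and 223 CPM in soft libraries 1 to 4. The groups covered nearly the same range, with library 4 highest and library 3 lowest on each substrate. The log2 fold change was 0.038 (SE 0.20).

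Gata6, on chromosome 18 from 11052510 to 11085636, encodes a related zinc finger factor that is also expressed in smooth muscle and other mesodermal cells. It stood at 90.1, 94.8, 93.3 and 148 CPM in stiff libraries 1 to 4, against 116, 143, 122 and 123 CPM in soft libraries 1 to 4. Stiff libraries 1 to 3 lay below every soft library, and stiff 4 lay above them all. The means were 107 ± 27.8 CPM on stiff and 126 ± 11.9 CPM on soft (SD, n = 4 each), and the log2 fold change was -0.24 (SE 0.19). Without stiff 4 it became -0.44, with an unadjusted p of 0.0211 and an adjusted p of 0.999983 in edgeR. That fit still called 0 genes. RefSeq's antisense gene Gata6os overlaps the start of Gata6 by 58 bases, and the strand setting of the counting is not given in the sources used here.

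Tbx5, on chromosome 5 from 119796514 to 119885220, encodes the T-box factor known for its role in atrial and left ventricular identity and in conduction. It stood at 16.6, 23.2, 33.6 and 22.8 CPM in stiff libraries 1 to 4, against 28.2, 17.7, 25.6 and 21.3 CPM in soft libraries 1 to 4. The soft libraries lay inside the range of the stiff ones, and the log2 fold change was 0.054 (SE 0.27), with -0.15 when stiff 3 was left out. The noncoding gene Gm5563 lies across 26660 bases of the Tbx5 locus, so that reads of the pair may not be told apart.

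Tbx20, on chromosome 9 from 24720812 to 24774303, encodes a T-box factor needed for the growth and maintenance of heart muscle. It stood at 735, 873, 514 and 1266 CPM in stiff libraries 1 to 4, against 803, 683, 453 and 800.3 CPM in soft libraries 1 to 4. Stiff 4 was the highest library and library 3 the lowest on each substrate, and the groups overlapped. The means were 847 ± 316 CPM on stiff and 685 ± 164 CPM on soft (SD, n = 4 each), and the log2 fold change was 0.31 (SE 0.25), the highest of the 10 factors. It became 0.046 without stiff 4. The spread between stiff libraries was 37.3% of the mean, against a median of 16.1% for the 500 genes nearest to it in mean level. On soft it was 24.0%, against 18.1%. Without soft 3 it was 9.02%, against a median of 19.0%. Without any other soft library it was 27.4% to 29.4%.

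Hand2, on chromosome 8 from 57320983 to 57324517, encodes a basic helix-loop-helix factor of the right ventricle, outflow tract and cardiac neural crest. It stood at 11.6, 12.2, 8.46 and 11.0 CPM in stiff libraries 1 to 4, against 14.6, 14.3, 14.7 and 19.4 CPM in soft libraries 1 to 4. All stiff libraries were below all soft libraries, soft 1 to soft 3 were close to one another, and soft 4 was the highest. The means were 10.8 ± 1.64 CPM on stiff and 15.8 ± 2.44 CPM on soft (SD, n = 4 each). The log2 fold change was -0.54 (SE 0.29, 95% interval -1.15 to 0.060), with an unadjusted p of 0.0746 and an adjusted p of 0.99997 in edgeR, and it did not pass. By unadjusted p Hand2 was number 256 of the 14059 genes. With any 1 library left out the log2 fold change lay between -0.60 and -0.42. The counts behind these values were 282 to 377 reads per stiff library and 407 to 588 per soft library, with counting errors of 4.12% to 5.95%.

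Smooth muscle cells and pericytes can also express Hand2. Estimates of their markers were lower on stiff for 11 of 11 tested genes, against 51.9% of all genes. Their median log2 fold change was -0.16, and 0 of 11 passed the adjusted test in edgeR. Their summed level was 2724, 3044, 3641 and 2458 CPM in stiff libraries 1 to 4, against 2662, 3068, 4225 and 3637 CPM in soft libraries 1 to 4. The groups overlapped. Stiff 3, with the lowest Hand2 of all libraries, had the highest sum on stiff. The highest sum on soft was in soft 3 and the highest Hand2 in soft 4. The mean log2 CPM of these markers, in which each gene has the same weight, was 5.91 to 6.27 on stiff and 6.28 to 6.70 on soft. By that measure every stiff library lay below every soft library, as for Hand2, but narrowly, with stiff 2 at 6.269 and soft 1 at 6.281. Taken singly, 0 of the 11 genes were without overlap, against 1.29% of all genes. Notch3, a receptor of mural cells, had the smallest p of that list, with 29.9 ± 6.62 CPM on stiff and 42.9 ± 9.45 CPM on soft (SD, n = 4 each), a log2 fold change of -0.52 (SE 0.23), an unadjusted p of 0.0391 and an adjusted p of 0.99997 in edgeR. The part of these cells in the Hand2 values was not tested. Scaled to cardiomyocyte markers in place of TMM, the log2 fold change of Hand2 was -0.51.

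The 3 MEF2 genes encode closely related MADS-box factors that bind the same sequence. Mef2a, on chromosome 7 from 67231163 to 67376456, stood at 295, 326, 304 and 334 CPM in stiff libraries 1 to 4, against 357, 345, 293 and 240.3 CPM in soft libraries 1 to 4. Mef2c, the MEF2 gene first active in the forming heart, on chromosome 13 from 83504017 to 83667079, stood at 176, 205, 187 and 191 CPM in stiff libraries 1 to 4, against 215, 219.8, 197 and 136 CPM in soft libraries 1 to 4. For both genes the stiff libraries lay inside the range of the soft ones, and soft 4 was the lowest of the 8. The log2 fold change was 0.027 (SE 0.17) for Mef2a. It was -0.018 (SE 0.18) for Mef2c. The noncoding genes Gm52043 and Gm52044 lie across 32293 and 26034 bases of the Mef2c locus, and Gm30586 overlaps Myocd by 65 bases, so that their reads may not be told apart either. The Mef2a and Mef2c estimates are the most tightly bounded differences among the factors, with 95% intervals of 0.795-fold to 1.31-fold for Mef2a and 0.761-fold to 1.28-fold for Mef2c.

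The SD of Mef2a was 5.82% of its mean on stiff and 17.4% on soft, and that of Mef2c 6.36% on stiff and 20.2% on soft. Among the 500 genes nearest in mean level, the median was 15.2% on stiff and 18.6% on soft for Mef2a, and 15.7% on stiff and 18.3% on soft for Mef2c. The spread on soft rests largely on soft 4. Without it the SD on soft was 10.3% of the mean for Mef2a and 5.65% for Mef2c. The medians of the 500 genes nearest in level fell as well without soft 4, to 13.4% for Mef2a and 14.1% for Mef2c.

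Mef2d, on chromosome 3 from 88141941 to 88172091, stood at 73.9, 53.4, 55.2 and 55.7 CPM in stiff libraries 1 to 4, against 66.4, 67.5, 51.3 and 58.0 CPM in soft libraries 1 to 4. Stiff 1 was the highest library, and the other 3 stiff libraries lay within the soft range. The log2 fold change was -0.029 (SE 0.19). The gene 1700113A16Rik overlaps Mef2d by 532 bases, and with 42 reads over all 8 libraries, against 14549 for Mef2d, it was hardly counted.

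Myocd, on chromosome 11 from 65173608 to 65269989, encodes myocardin, the coactivator of serum response factor in heart and smooth muscle. It stood at 147, 143, 104 and 183 CPM in stiff libraries 1 to 4, against 163, 149, 143 and 120.4 CPM in soft libraries 1 to 4. Stiff 3 was the lowest and stiff 4 the highest of the 8, so that the stiff range enclosed the soft one. The means were 144 ± 32.2 CPM on stiff and 144 ± 17.6 CPM on soft (SD, n = 4 each), and the log2 fold change was 0.0038 (SE 0.19).

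Ratios of related factors inside a library do not depend on scaling between libraries, and 5 were set against each other by exact permutation, two-sided, which cannot go below p = 0.0286 with 4 against 4. The log2 ratio of Gata6 to Gata4 counts averaged -0.79 ± 0.32 on stiff and -0.50 ± 0.26 on soft (SD, n = 4 each). The difference of -0.29 had an exact p of 0.2 (0.714 after adjustment over the 5), and stiff 3 and stiff 4 lay within the soft range. The log2 ratio of Tbx20 to Tbx5 averaged 5.11 ± 0.81 on stiff and 4.87 ± 0.52 on soft, with an exact permutation p of 0.629. The log2 ratio of Mef2c to Mef2a had the smallest SD of the 5, 0.061 on stiff and 0.11 on soft. Mef2a took 54.2% to 57.6% of the reads of the 3 MEF2 genes on stiff and 54.1% to 55.9% on soft. Mef2c took 32.3% to 35.1% on stiff and 31.3% to 36.4% on soft, and Mef2d took 9.15% to 13.6% on stiff and 9.47% to 13.4% on soft. The difference in the log2 ratio of Mef2c to Mef2a was -0.038 (exact permutation p = 0.571), of Mef2d to Mef2a -0.076 (exact permutation p = 0.571) and of Mef2c to Mef2d 0.039 (exact permutation p = 0.714). The adjusted p was 0.714 for each of the 5 ratios.

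**Figure D3:**
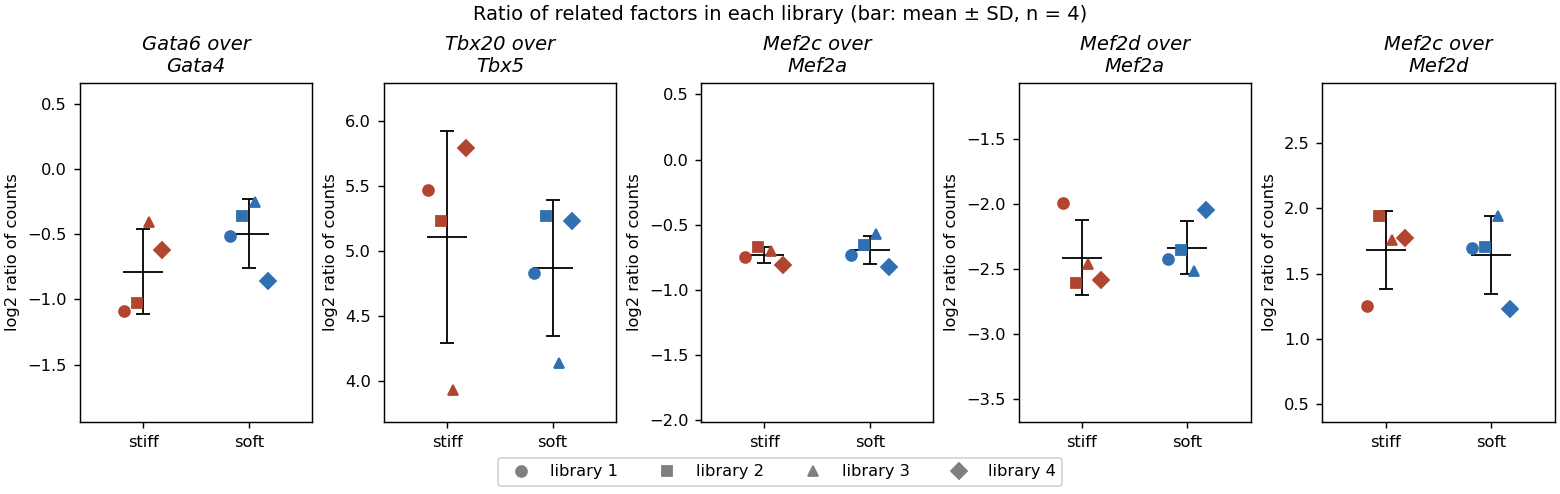
Log2 ratio of the counts of 2 related factors (vertical axis, the same span in each panel) in stiff and soft libraries; symbols are libraries and bars the mean ± SD. Mef2c over Mef2a keeps within -0.81 to -0.67 on stiff and -0.82 to -0.57 on soft, and Tbx20 over Tbx5 spreads widest, from 3.93 to 5.79 on stiff and from 4.14 to 5.27 on soft.

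Among themselves the factors did not vary as 1 block across the 8 libraries. Of the 45 pairs, Mef2a and Mef2c were most alike, with a Pearson r of 0.93 and a Spearman rho of 0.79 over 8 libraries in log2 CPM, followed by Gata4 and Tbx20 (r = 0.83, rho = 0.79). Nkx2-5 ran opposite to Mef2c (r = -0.90, rho = -0.60) and Mef2a (r = -0.82, rho = -0.48). In soft 4 Nkx2-5 was 1.21 above its own mean on the log2 scale and Hand2 0.58 above, while Mef2c was 0.48 below and Mef2a 0.37 below. In stiff 4 Tbx20 was 0.79, Gata6 0.37, Myocd 0.36 and Gata4 0.36 above their means. In stiff 3 Hand2 was 0.61, Gata4 0.53, Tbx20 0.51 and Myocd 0.45 below, and Tbx5 was 0.54 above. These correlations describe libraries that share their depth and scaling, and they rest on few libraries.

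**Figure D4:**
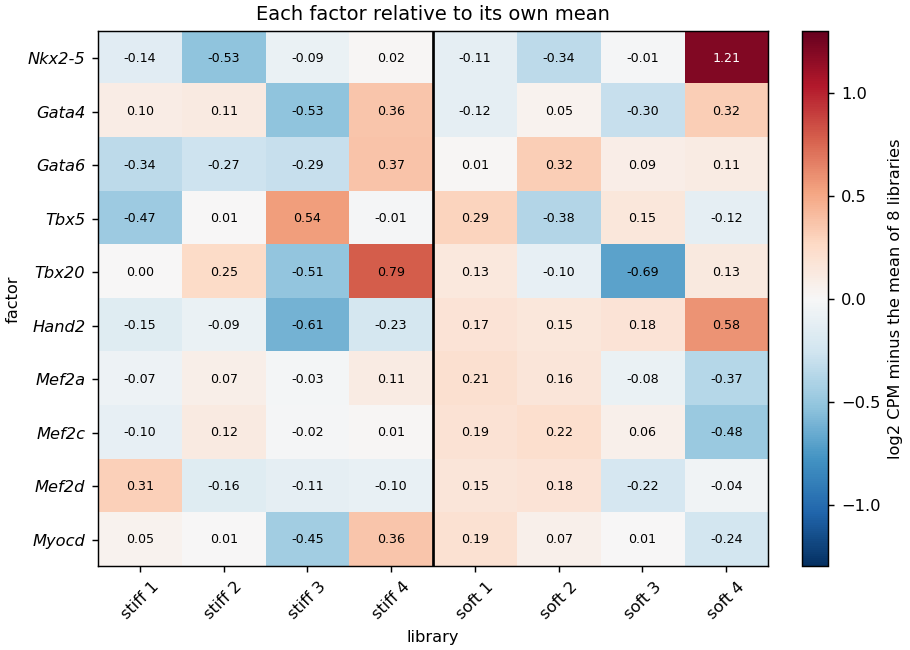
Log2 CPM of each factor minus its mean over the 8 libraries, with stiff libraries left of the line and soft libraries right of it; red is above and blue below the mean. The strongest deviation is Nkx2-5 in soft 4 at 1.21, where Mef2a (-0.37) and Mef2c (-0.48) are at their lowest.

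The factors were set against the mean log2 level of the 15 cardiomyocyte markers and of the 15 fibroblast markers in the same libraries, 20 relations in all. With the cardiomyocyte markers, Nkx2-5 had r = 0.92 (exact permutation p = 0.0034, adjusted 0.0652) and rho = 0.76 (exact permutation p = 0.0368, adjusted 0.245). Without soft 2 and soft 4, the libraries farthest from the median of the markers, r was 0.65. Mef2c ran the other way, with r = -0.91 (exact permutation p = 0.0065, adjusted 0.0652) and rho = -0.86 (exact permutation p = 0.0107, adjusted 0.107), and r was -0.48 without those 2. Mef2a had r = -0.73 (exact permutation p = 0.0516, adjusted 0.258) and rho = -0.45 (exact permutation p = 0.267, adjusted 0.669), and with r = 0.13 without those 2 its relation rests on them. With the fibroblast markers, Nkx2-5 had rho = 0.93 (exact permutation p = 0.0022, adjusted 0.0446) and r = 0.66 (exact permutation p = 0.0220, adjusted 0.147), and r was 0.71 without soft 2 and stiff 1, the farthest by that measure. That rank relation was the 1 value of the 20 relations with an adjusted p under 0.05. Values of r and of rho were adjusted separately, each over the 20 relations and not over both sets together. The pass therefore holds within the set of rho alone, and r of the same relation did not pass. The permutation also pools the substrates and treats all libraries as independent. The fibroblast score was 7.42 and 7.43 in stiff 3 and soft 3, and 7.54 and 7.59 in stiff 4 and soft 4. In libraries 1 and 2 of both substrates it was 6.82 to 7.12. If libraries of the same number share a culture, which no label states, these p-values are too small. For the other 7 factors the adjusted p was 0.284 or more in each relation. Both marker levels were at their highest in soft 4.

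**Figure D5:**
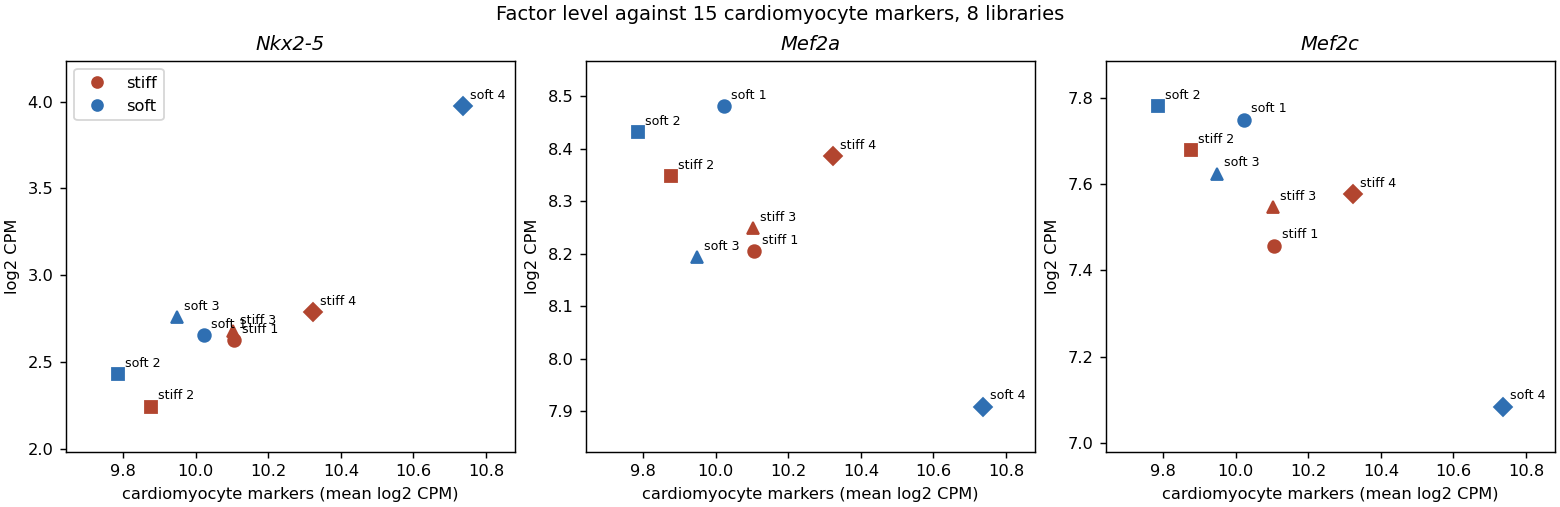
Log2 CPM of Nkx2-5, Mef2a and Mef2c (vertical axes) against the mean log2 CPM of 15 cardiomyocyte markers (horizontal axis), 1 point per library. Soft 4 lies farthest right, at 10.7, with the highest Nkx2-5 and the lowest Mef2a and Mef2c.

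The coding genes whose log2 CPM followed each factor most closely were sought among 13220 genes with a mean of at least 1 CPM, and such a search finds high correlations over 8 libraries in any case. Hand2 was most like Dact3 (r = 0.98) and H1f0 (0.96), and Nkx2-5 most like Tinagl1 (0.98) and Samd1 (0.98). Gata4 was most like Gm26782 (0.97) and Zfp536 (0.97), and Gata6 most like Minpp1 (0.95) and Jag1 (0.95). Tbx5 was most like Snrpa1 (0.98) and Ccne1 (0.97), and Tbx20 most like Tmem62 (0.97) and Tcaf2 (0.94). Mef2a was most like Zfp638 (0.98) and Rabep1 (0.98), Mef2c most like Usp34 (0.97) and Gng12 (0.97), Mef2d most like Fhod3 (0.94) and Opcml (0.93), and Myocd most like Nom1 (0.97) and Dnajc13 (0.95).

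Of 23 other genes of the same families, 11 had enough counts to be tested, and 10 were at 0 in all libraries, among them Gata1, Mef2b and the 5 other NKX2 genes listed. Hand1, the paralogue of Hand2, had 36 reads over the 8 libraries. Tbx18, a T-box gene of epicardium and mural cells, stood at 146 ± 23.7 CPM on stiff and 152 ± 29.1 CPM on soft (SD, n = 4 each), and its log2 fold change was -0.057. Mrtfb, a myocardin-related coactivator known to respond to actin, stood at 66.9 ± 12.3 CPM on stiff and 68.0 ± 13.4 CPM on soft. In edgeR 0 of the 11 passed, 4 estimates were higher and 7 lower on stiff, with a median log2 fold change of -0.057.

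Genes for proteins that work with these factors did not pass the test either. In the lists of family members, partners, repressors, kinases and targets 0 genes had an unadjusted p under 0.05 in edgeR. Of all genes 0.925% did, a share at which 0 is unremarkable for lists of this size. The counts of higher and lower estimates in these lists stand beside 48.1% higher and 51.9% lower over all genes. Of 14 coactivators and partner factors, 0 were called in either direction by edgeR, with 6 estimates higher and 8 lower and a median of -0.050. The log2 fold change was -0.44 (SE 0.25) for Nfatc4 and 0.45 (SE 0.27) for Nfatc1, both calcineurin-regulated factors that can bind with GATA4. Tead1, a Hippo pathway factor of muscle enhancers, stood at 263 ± 54.7 CPM on stiff and 294 ± 56.0 CPM on soft. Of 14 corepressors and repressing factors, 0 were called, with 4 estimates higher and 10 lower and a median of -0.093. Zfpm1 and Zfpm2 encode the FOG cofactors that bind GATA factors. Zfpm1 was at -0.48 (SE 0.26) in log2 fold change, and Zfpm2 stood at 199 ± 81.8 CPM on stiff and 205 ± 42.3 CPM on soft. Hdac4, a class IIa deacetylase that represses MEF2, stood at 80.9 ± 7.36 CPM on stiff and 71.7 ± 8.31 CPM on soft.

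Of 15 kinases and phosphatases known to act on MEF2 or GATA4, 0 were called, with 9 estimates higher and 6 lower on stiff and a median of 0.070. Prkd3, of the protein kinase D family that exports class IIa deacetylases from the nucleus, had the smallest p, with a log2 fold change of 0.24 (SE 0.16). Camk2d, the main cardiac calcium/calmodulin kinase, stood at 433 ± 63.8 CPM on stiff and 446 ± 54.5 CPM on soft. Of 24 textbook target genes of the factors 23 were tested. Xirp1 had 0 reads in every library, which cannot tell a gene not expressed from one missed in the counting. Of the 23, 0 were called, with 6 estimates higher and 17 lower and a median of -0.10. Over all genes 48.1% of estimates were higher and 51.9% lower. For Nppa, the atrial natriuretic peptide gene, the log2 fold change was 0.11 (SE 0.21), and for Ckm, the muscle creatine kinase gene bound by MEF2, it was -0.73 (SE 0.54), with 67.6 ± 13.1 CPM on stiff and 112 ± 111 CPM on soft. Summed over the targets, the level was 27290 to 36103 CPM on stiff and 24750 to 46152 CPM on soft, with soft 4 the highest. Several targets, Nppa and Actc1 among them, are also among the cardiomyocyte markers. The sum of the targets is therefore in large part the sum of those markers and not a separate result.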

How the data were processed

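RNA sequencing libraries of embryonic mouse cardiomyocytes, 4 on a stiff and 4 on a soft substrate, were grouped by the substrate label. The authors deposited raw read counts per Ensembl gene and library, with 29844 genes, of which 29150 matched a symbol; rows without one held 0.106% of the counts. Per the submitters' processing notes, FastQC 0.11.2, Bowtie2, TopHat2 2.0.14, TopHat, HTSeq 0.6.1, Cufflinks, DESeq2 and edgeR were used with build GRCm38; which tool did what, the strand setting and the annotation release are not known here. A second table, of noncoding genes, was not used here.

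The tools were edgeR 4.0.16, DESeq2 1.42.0 and limma 3.58.1 under R 4.3.3. After filterByExpr (minimum count 10, minimum total 15) and TMM scaling, edgeR's robust quasi-likelihood test compared the substrates without other terms, with Benjamini-Hochberg adjustment over the 14059 genes tested and a threshold of 0.05. Log2 CPM used a prior count of 2, and counting errors cover sampling of reads only. Log2 ratios added 0.5 to each count. Ratios and correlations were tested by exact permutation in Python 3.11.15 with SciPy 1.17.1. Positions and promoter windows are RefSeq's on GRCm38.p6.

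Alternatives were other scalings and filters, DESeq2, limma-voom, each library left out, and the library number as a block. The members and gene lists were chosen with earlier results of these data known. Named genes are the 10 factors, up to 2 of each list by smallest p and 2 by level. The 2 genes most alike to each factor and genes overlapping a factor are named as well. Cldn5, Xirp1, Hand1, Gata1 and Mef2b are named in addition because they were not tested. Hand1 had too few reads, and the others of these had 0 reads in every library. A row of 0 reads cannot tell a gene not expressed from one missed in the counting.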

Additional observations from a re-analysis of the deposited data

Results flagged for a closer look

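Among 30 groups of 4 libraries looked at (10 factors and 5 ratios on each substrate), 4 had a library set apart from the other 3 by more than Dixon's critical share of the range; chance flags about 1 group in 20. Gata6 stood at 148 CPM in stiff 4, against 90.1 to 94.8 CPM in the other stiff libraries. Mef2d stood at 73.9 CPM in stiff 1, against 53.4 to 55.7 CPM in the other stiff libraries. Nkx2-5 stood at 15.6 CPM in soft 4, with soft 1 to soft 3 at 5.31 to 6.69 CPM. Hand2 stood at 19.4 CPM in soft 4, with soft 1 to soft 3 at 14.3 to 14.7 CPM. Soft 4 thus appears for 2 factors, and it is also the soft library with the highest sum of cardiomyocyte markers.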

How the results depend on the processing

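Under every alternative run, 0 of the 10 factors was called. The count of called coding genes stayed at 0 in every setting except limma-voom with the replicate block, leave-one-out fits included (0 to 0). That block setting, chosen after seeing the data, called 8 genes, none of them a factor. Tbx20 had an unadjusted p of 0.0343 and an adjusted p of 0.999912 in that limma-voom fit. The count of calls under scaling to cardiomyocyte markers, also 0, was not planned in advance either. The rest of the library codes is the same within a substrate and differs between substrates. What it marks is not stated, and a batch behind it could not be told apart from stiffness. The library number follows the order of the samples and the last digit of the library codes. No label says that it marks a shared litter or day, and it was therefore not used as a pairing. Deviations of same-number libraries correlated at 0.104 to 0.305, each over 0.1, which hints at a pairing. Stiff 1 correlated more with soft 2 (0.13) and soft 1 with stiff 2 (0.112). By the chi-square of counts per degree of freedom stiff 1 was nearest to soft 1 (46.3, against 56.7 for soft 2). Stiff 2 was nearest to soft 2 (44.8) and stiff 3 to soft 3 (54.6). Stiff 4 was nearest to soft 3 (105, against 113 for soft 4). Among stiff libraries the lowest values were 57.3 for stiff 1 and stiff 2, 102 for stiff 3 and 121 for stiff 4. Each stiff library was thus nearer to a soft library than to any of its own substrate. The SE and p-values of the main fit take no account of this. With the replicate block edgeR also called 0 genes, with 360 at an unadjusted p under 0.05 against 130, and the log2 fold change was -0.54 for Hand2, -0.37 for Nkx2-5 and 0.27 for Tbx20, whose unadjusted p was 0.0659 with the block and 0.244 without it (adjusted p = 1 and 0.99997 in edgeR).

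Of 180 alternative log2 fold changes of the factors, 154 kept their sign and 26 changed it, each for a factor whose estimate lay within 0.054 of 0. Mef2c was 0.0060 with limma-voom, 0.0044 with the replicate block and 0.0014 with both, and Myocd was -0.016 with limma-voom, -0.017 with the replicate block and -0.0073 with both. Scaled to cardiomyocyte markers, Mef2a was -0.025 and Myocd -0.049. With any 1 library left out, the range was -0.083 to 0.19 for Gata4, -0.15 to 0.19 for Tbx5, -0.069 to 0.10 for Mef2a, -0.15 to 0.059 for Mef2c, -0.15 to 0.028 for Mef2d and -0.13 to 0.13 for Myocd. It was -0.60 to -0.42 for Hand2, -0.44 to -0.17 for Gata6, 0.046 to 0.48 for Tbx20 and -0.67 to -0.015 for Nkx2-5, and these 4 kept their sign.

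Ratios with 1 library left out ran from -0.42 to -0.19 for Gata6 over Gata4, -0.0049 to 0.63 for Tbx20 over Tbx5, -0.081 to 0.0040 for Mef2c over Mef2a, -0.21 to 0.019 for Mef2d over Mef2a and -0.10 to 0.18 for Mef2c over Mef2d. Correlations with the cardiomyocyte markers ran, with 1 library left out, from -0.27 to 0.21 for Tbx5, -0.26 to 0.061 for Mef2d, -0.55 to 0.46 for Hand2 and -0.49 to 0.22 for Myocd. Without the 2 farthest libraries they were 0.13 for Mef2a, 0.20 for Mef2d, -0.45 for Hand2 and 0.33 for Myocd. With the fibroblast markers the leave-one-out ranges were -0.25 to 0.28 for Gata4, -0.39 to 0.26 for Tbx20 and -0.38 to 0.35 for Hand2, and without the 2 farthest libraries r was -0.20 for Tbx5 and -0.025 for Tbx20. With DESeq2 size factors the r of Gata4 with the fibroblast markers was -0.013. The cause of these changes was not tested. Nkx2-5 and Hand2 had the fewest reads of the factors over all libraries, 137 to 588 per library.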
